A study of Schizosaccharomyces pombe with 9 samples.

Results

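The PHO genes of the fission yeast Schizosaccharomyces pombe and the noncoding RNAs transcribed upstream of them were measured as poly(A)+ RNA. The 6 members were chosen by identifier among 6988 counted features, and all 6 passed the filter on low counts. They form 3 pairs, in which the gene is named first and its upstream RNA after it. The pairs are pho1 (SPBP4G3.02) with nc-pho1 (SPNCRNA.1712, also called prt), pho84 (SPBC8E4.01c) with prt2 (SPNCRNA.9001), and tgp1 (SPBC1271.09) with nc-tgp1 (SPNCRNA.1698). The libraries came from 3 strains, with 3 biological replicates each, taken from log-phase cultures at 30 °C in YES, a rich medium. One strain is labelled rsm1∆::natMX, a deletion of rsm1. Another is labelled nup211-1435* asp1-WT::kanMX and carries an allele of nup211 and also a kanMX-marked wild-type asp1. The reference strain is WT (Sp1). All are h- strains. Nup211 and Rsm1 belong to the basket on the nuclear face of the nuclear pore, and the question put to these strains was how the basket bears on where transcripts are cut and where transcription stops. Both strains other than WT are labelled with a drug-resistance marker, so the effect of a marker and that of a mutation cannot be told apart. They are called the labelled strains below.

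The PHO genes serve the uptake of phosphate. Pho1 is a secreted acid phosphatase, Pho84 a phosphate transporter of the plasma membrane and Tgp1 a transporter of glycerophosphodiesters. In cells with ample phosphate, each gene is known to be held down by transcription of the noncoding RNA that starts upstream and runs across the promoter of the gene. When this transcription ends early, the promoter is freed, and the activator Pho7 can drive the gene. Termination of the upstream RNA is known to respond to 3′-processing factors, to marks on RNA polymerase II and to inositol pyrophosphates made by Asp1.

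The RNA counts were scaled to CPM (counts normalized to a common library total) with the trimmed mean of M values (TMM) and were tested with edgeR's quasi-likelihood test in 1 fit over all 9 libraries. A feature was called at a Benjamini-Hochberg adjusted p under 0.05 over the 6227 features tested. Totals lay between 20.98 and 28.11 M counts per library. The labels were checked on their own genes. The gene rsm1 had 31.2, 33.2 and 31.0 CPM in the rsm1∆-labelled libraries, against 37.1, 36.7 and 36.3 CPM in WT. It was therefore still counted in those libraries (log2 fold change -0.21, SE 0.05, adjusted p = 0.00113), a difference that failed the test under scaling by total counts (adjusted p = 0.251), and the group is called the rsm1∆-labelled libraries throughout. Whether the deleted bases lie outside the counted ones or the label is wrong was not tested, and this bears on what every value of that group stands for. In nup211-1435 rsm1 averaged 44.1 CPM, above WT (log2 fold change 0.26, SE 0.05, adjusted p = 0.000111). The gene nup211 averaged 267 ± 8.23 CPM in nup211-1435, 249 ± 16.7 CPM in the rsm1∆-labelled libraries and 180.0 ± 10.5 CPM in WT (SD, n = 3 each). It was called higher than WT in both labelled strains (adjusted p = 6.54e-07 and 3.36e-06). A difference between those strains did not pass the test (adjusted p = 0.118). The count of nup211 does not check the allele. In a bulk culture, a change in the share of cells that express a gene and a change in RNA per cell cannot be told apart.

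The stretches of DNA where the genes and their upstream RNAs begin are shown because the upstream RNAs run across the promoters of the genes. Sequences were read from the RefSeq assembly ASM294v3 by feature name, while the counts were made on ASM294v2, so positions are given relative to the annotated start of each feature. All 3 loci lie on chromosome II. The prt2-pho84 pair and the nc-pho1-pho1 pair follow each other on the plus strand, and the nc-tgp1-tgp1 pair lies elsewhere on the minus strand. The 250 bases before each gene's annotated start are shown 5′ to 3′ on the strand of the gene, with matches to the Pho7 motif in capitals. That motif was searched on both strands as TCGGANNTTNAA, TCGGTNNTTNAA, TCGCANNTTNAA and TCGCTNNTTNAA.
pho1: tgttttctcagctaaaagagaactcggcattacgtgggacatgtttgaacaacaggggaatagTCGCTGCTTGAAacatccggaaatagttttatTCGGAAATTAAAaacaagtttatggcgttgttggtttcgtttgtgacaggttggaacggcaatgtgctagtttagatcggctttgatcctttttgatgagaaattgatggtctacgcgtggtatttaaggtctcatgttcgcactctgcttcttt
pho84: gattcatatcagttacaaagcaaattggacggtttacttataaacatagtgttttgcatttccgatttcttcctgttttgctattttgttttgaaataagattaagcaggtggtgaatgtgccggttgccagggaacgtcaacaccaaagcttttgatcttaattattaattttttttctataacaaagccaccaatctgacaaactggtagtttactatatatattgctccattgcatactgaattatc
tgp1: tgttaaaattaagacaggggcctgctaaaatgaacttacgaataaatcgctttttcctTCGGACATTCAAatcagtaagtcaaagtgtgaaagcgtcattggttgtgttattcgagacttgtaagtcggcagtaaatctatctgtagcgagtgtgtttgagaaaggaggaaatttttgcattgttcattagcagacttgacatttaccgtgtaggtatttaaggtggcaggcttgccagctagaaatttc
The pho1 window held 2 matches, from 187 to 176 and from 155 to 144 bases before the start. The tgp1 window held 1 match, from 192 to 181 bases before the start, and the pho84 window held none of these letters. Over all annotated protein-coding genes, 1.94% of 5112 windows of the same length held a match. The upstream RNAs begin 1147, 1559 and 1823 bases before the starts of pho1, pho84 and tgp1, and so run across these windows.

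The promoters of the upstream RNAs are of interest because prt is known to be driven by a HomolD box and a TATA box. The 120 bases before each RNA's annotated start are shown on the strand of the RNA, with the HomolD core CAGTCAC in capitals.
nc-pho1: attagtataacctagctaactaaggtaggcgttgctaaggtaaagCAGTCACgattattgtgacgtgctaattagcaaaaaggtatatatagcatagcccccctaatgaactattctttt
prt2: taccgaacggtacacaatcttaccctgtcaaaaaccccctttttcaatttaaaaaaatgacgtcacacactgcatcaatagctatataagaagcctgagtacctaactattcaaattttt
nc-tgp1: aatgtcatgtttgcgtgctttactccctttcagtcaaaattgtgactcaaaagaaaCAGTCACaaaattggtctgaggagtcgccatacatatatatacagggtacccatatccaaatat
The core lay 75 to 69 bases before the start of nc-pho1 and 64 to 58 bases before that of nc-tgp1. No match stood before prt2 in 250 bases on either strand. Of 7133 annotated long noncoding RNAs, 1.72% held this core within 250 bases before their start, and 4.52% of the protein-coding windows did.

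The upstream RNAs also hold copies of TNAAAC, the DNA form of the hexamer bound by Mmi1, a protein that directs RNAs to elimination by the nuclear exosome. The densest stretches within 40 bases are shown because they are where such copies cluster, with TNAAAC in capitals.
nc-pho1 cluster: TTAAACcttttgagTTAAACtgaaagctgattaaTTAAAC
nc-tgp1 cluster: TCAAACaaccccctTAAAACtatcTCAAAC
prt2 cluster: TGAAACcggccgattactggtttTAAAAC
The nc-pho1 stretch runs from base 399 to base 438 of the RNA and holds 3 copies. The nc-tgp1 stretch runs from base 821 to base 850 with 3 copies, and the prt2 stretch from base 814 to base 842 with 2. Of 2218 long noncoding RNAs of at least 1000 nt, 1.04% had 3 or more copies within 40 bases on the transcribed strand, and 18.0% had 2 or more. Over the whole RNA there were 6 copies in nc-pho1, 11 in prt2 and 6 in nc-tgp1. These came to 2.34, 3.21 and 3.16 per kb, beside a median of 1.82 per kb over those long noncoding RNAs. The genes held copies too, at 3.88 per kb in pho1, 2.38 in pho84 and 1.43 in tgp1. Copies in bases that a gene shares with its upstream RNA are counted for both. No median over protein-coding genes was taken.

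Reads of the pairs are not cleanly separable. In ASM294v3, nc-pho1 (2560 nt) shares 1413 nt with pho1 (1548 nt), and prt2 (3429 nt) shares 1870 nt with pho84 (2100 nt), on the same strand. By contrast nc-tgp1 (1900 nt) shares only 77 nt with tgp1 (2102 nt). A read within the shared bases can belong to either RNA, and the rule by which such reads were assigned or dropped is not given in the sources used here. Fold changes are given for the same feature between strains. Shared reads can still enter those of nc-pho1, pho1, prt2 and pho84, and by how much was not tested. Where the counts of a pair are set side by side, they describe the reads assigned to each feature and not the number of molecules.

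In both labelled strains, pho1 and pho84 RNA fell and all 3 upstream RNAs rose, while tgp1 RNA did not pass the test in either. The loss was deepest for pho1, and it was deeper in the rsm1∆-labelled libraries than in nup211-1435. Against WT, 5 of the 6 members were called in each labelled strain, beside 70.7% of all features for the rsm1∆-labelled libraries and 64.9% for nup211-1435. Of the 3 genes, 2 fell and none rose, where 34.1% and 32% of all features fell in these comparisons. Of the 3 upstream RNAs, all rose, where 36.7% and 32.9% of all features rose, and 25.4% and 22.4% of 1147 tested features with SPNCRNA identifiers, of which 28.3% and 30.7% fell. A called change is thus common in these strains, and the sizes below tell more than the calls. The median log2 fold change over all features was 0.014 for the rsm1∆-labelled libraries and 0.007 for nup211-1435. Both comparisons use the same 3 WT libraries.

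**Figure D1:**
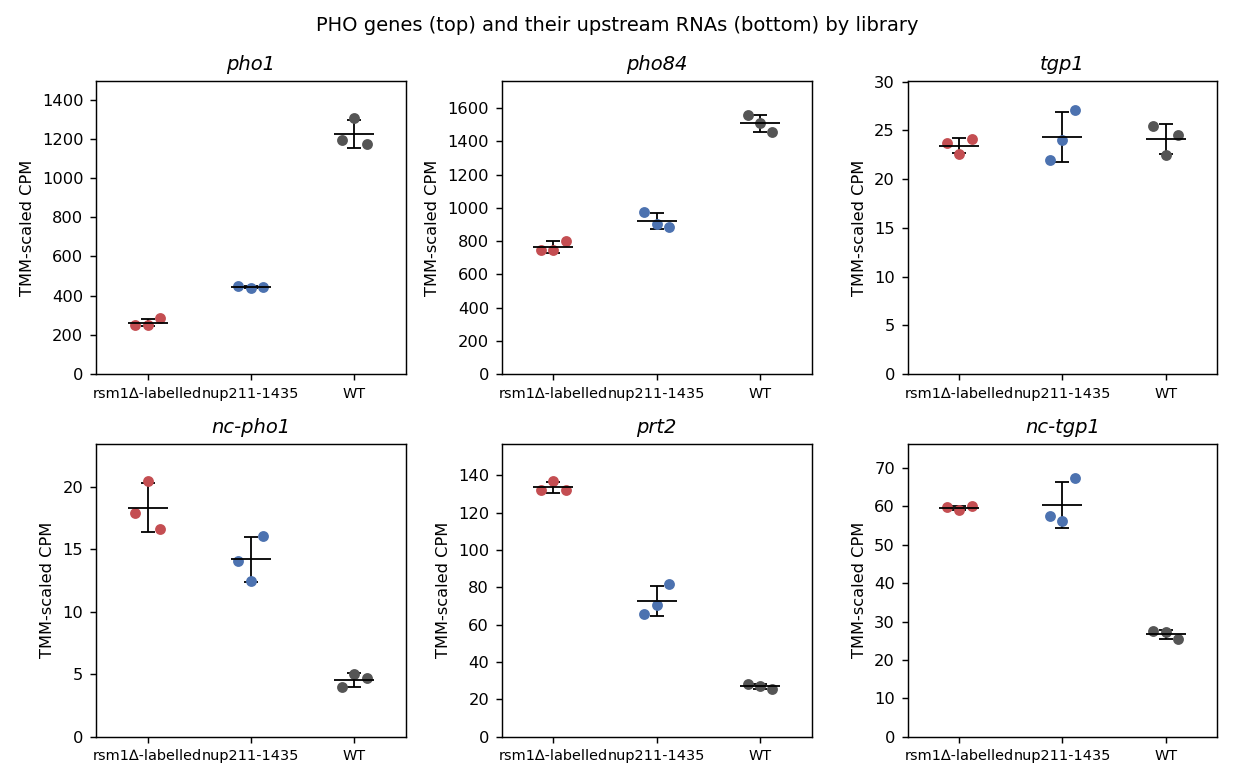
TMM-scaled CPM (vertical axis, linear from 0) of the 3 PHO genes in the top row and their upstream RNAs in the bottom row, with 1 point per library, a bar at the mean and error bars of 1 SD (n = 3). Levels of pho1 and pho84 lie lower in both labelled strains than in WT, those of the upstream RNAs lie higher, and tgp1 overlaps between all 3 groups.

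The acid phosphatase gene pho1 had 252, 252 and 285 CPM in the rsm1∆-labelled libraries, 449, 438 and 445 CPM in nup211-1435, and 1194, 1306 and 1175 CPM in WT. The 3 groups did not overlap, with the rsm1∆-labelled libraries lowest and WT highest. The share of all features without overlap was not taken, so a lack of overlap here and below only describes the values. The level was 4.66-fold lower in the rsm1∆-labelled libraries (log2 fold change -2.22, SE 0.05, adjusted p = 3.14e-12). In nup211-1435 it was 2.76-fold lower (log2 fold change -1.46, SE 0.05, adjusted p = 7.84e-11). Ordered by log2 fold change, pho1 was the 11th lowest of 6227 features in the rsm1∆-labelled libraries and the 79th lowest in nup211-1435. The labelled strains also differed from each other, with pho1 1.69-fold higher in nup211-1435 (log2 fold change 0.76, SE 0.05, adjusted p = 1.44e-07).

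Its upstream RNA nc-pho1 had 17.9, 20.5 and 16.6 CPM in the rsm1∆-labelled libraries, 14.1, 12.5 and 16.0 CPM in nup211-1435, and 3.97, 4.99 and 4.69 CPM in WT. Here the order of the groups was turned round, with WT lowest in every library. In WT it had 94, 124 and 123 counts and stood 5309th of 6227 features by mean CPM. It rose 4.03-fold in the rsm1∆-labelled libraries (log2 fold change 2.01, SE 0.12, adjusted p = 1.38e-09) and 3.12-fold in nup211-1435 (log2 fold change 1.64, SE 0.12, adjusted p = 2.03e-08). Between the labelled strains the difference was smaller, at 0.775 of the level in the rsm1∆-labelled libraries (log2 fold change -0.37, SE 0.10, adjusted p = 0.0082). That call rested on single libraries: leaving out replicate 2 of nup211-1435 gave an adjusted p of 0.052, and leaving out replicate 2 of the rsm1∆-labelled libraries gave 0.0602.

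The phosphate transporter gene pho84 had 746, 744 and 804 CPM in the rsm1∆-labelled libraries, 977, 901 and 886 CPM in nup211-1435, and 1560.2, 1513 and 1456 CPM in WT. It showed the same order of strains as pho1 with a smaller spread between them, and no library of one group reached into another. The level was 1.97-fold lower in the rsm1∆-labelled libraries (log2 fold change -0.98, SE 0.04, adjusted p = 1.46e-10) and 1.64-fold lower in nup211-1435 (log2 fold change -0.71, SE 0.04, adjusted p = 3.62e-09). In nup211-1435 it stood 1.2-fold above the rsm1∆-labelled libraries (log2 fold change 0.27, SE 0.04, adjusted p = 0.000138).

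The upstream RNA of pho84, prt2, had 132, 137 and 132 CPM in the rsm1∆-labelled libraries, 66.0, 70.4 and 81.6 CPM in nup211-1435, and 28.3, 27.2 and 25.3 CPM in WT. Each group kept to its own range. The rise was 4.97-fold in the rsm1∆-labelled libraries (log2 fold change 2.31, SE 0.07, adjusted p = 9.99e-11), the 33rd highest log2 fold change of the 6227 features. In nup211-1435 it was 2.7-fold (log2 fold change 1.43, SE 0.07, adjusted p = 8.03e-09). Of the 3 upstream RNAs, prt2 set the labelled strains farthest apart, with nup211-1435 at 0.544 of the level in the rsm1∆-labelled libraries (log2 fold change -0.88, SE 0.06, adjusted p = 6.42e-07).

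tgp1, which encodes the transporter of glycerophosphodiesters, was low in all strains, with 23.7, 22.6 and 24.1 CPM in the rsm1∆-labelled libraries, 21.96, 24.0 and 27.1 CPM in nup211-1435, and 25.4, 22.5 and 24.6 CPM in WT. The 3 groups overlapped. The log2 fold change against WT was -0.04 in the rsm1∆-labelled libraries (SE 0.08, adjusted p = 0.624), with a 95% interval from 0.87-fold to 1.09-fold, and its sign turned under scaling by total counts (0.10). In nup211-1435 it was 0.01 (SE 0.08, adjusted p = 0.874), with a 95% interval from 0.9-fold to 1.13-fold. These intervals leave room for small changes in either direction but not for a loss of the size seen for pho84.

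Its upstream RNA nc-tgp1 rose all the same. It had 59.8, 59.1 and 60.0 CPM in the rsm1∆-labelled libraries, 57.5, 56.3 and 67.3 CPM in nup211-1435, and 27.5, 27.2 and 25.4 CPM in WT. Every library of the labelled strains lay above every WT library, and the labelled strains overlapped each other. The rise was 2.24-fold in the rsm1∆-labelled libraries (log2 fold change 1.16, SE 0.06, adjusted p = 7.66e-10) and 2.27-fold in nup211-1435 (log2 fold change 1.18, SE 0.06, adjusted p = 7.61e-10).

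Between the labelled strains, pho1 and pho84 were higher and nc-pho1 and prt2 lower in nup211-1435 than in the rsm1∆-labelled libraries. The tgp1 pair did not pass the test. With 4 of the 6 members called, the background was 50.2% of all features, with 24.5% rising and 25.7% falling, and among the SPNCRNA features 14.6% rose and 21.4% fell. For tgp1 the log2 fold change was 0.06 (SE 0.08, adjusted p = 0.544), with a 95% interval from -0.10 to 0.22. For nc-tgp1 it was 0.02 (SE 0.06, adjusted p = 0.809), and its 95% interval ran from 0.93-fold to 1.11-fold. The responses thus differed between the labelled strains at the neighbouring pho84 and pho1 loci, while for the tgp1 pair no difference was detected within those intervals.

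The levels also place the members among all features. Ranked by mean CPM among 6227 features, pho1 stood 746th in the rsm1∆-labelled libraries, 456th in nup211-1435 and 177th in WT. The RNA prt2 stood 1612th in the rsm1∆-labelled libraries, 2678th in nup211-1435 and 4153rd in WT. Without correction for length these ranks describe counted reads, not molecules.

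The number of upstream RNA counts per 100 counts of its gene, taken within each library, does not depend on how libraries are scaled. For pho1 this ratio was 7.10, 8.13 and 5.84 in the rsm1∆-labelled libraries, 3.14, 2.85 and 3.61 in nup211-1435, and 0.332, 0.382 and 0.399 in WT. In all 9 libraries, far fewer reads were assigned to the upstream RNA than to pho1, but the share was highest in the rsm1∆-labelled libraries and lowest in WT without overlap. The mean log2 ratio exceeded that of WT by 4.23 (SE 0.16) in the rsm1∆-labelled libraries, an 18.8-fold difference, and by 3.10 (SE 0.13) in nup211-1435, an 8.6-fold difference.

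For pho84 the ratio was 17.7, 18.4 and 16.4 upstream counts per 100 gene counts in the rsm1∆-labelled libraries, 6.75, 7.82 and 9.21 in nup211-1435, and 1.81, 1.80 and 1.74 in WT. The groups again stood in the same order without overlap. The mean log2 ratio was 3.29 (SE 0.05) above WT in the rsm1∆-labelled libraries, or 9.8-fold, and 2.14 (SE 0.13) above it in nup211-1435, or 4.41-fold. The log2 ratio in nup211-1435 differed from that in the rsm1∆-labelled libraries by -1.13 (SE 0.17) for pho1 and -1.15 (SE 0.14) for pho84. These differences were alike in size but not in make-up. At pho1 the gene differed more than its upstream RNA (log2 fold changes 0.76 and -0.37). At pho84 the upstream RNA prt2 differed more than the gene (-0.88 and 0.27).

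For tgp1 the upstream RNA had more counts than the gene in every library. The ratio was 253, 262 and 249 per 100 in the rsm1∆-labelled libraries, 262, 234 and 249 in nup211-1435, and 108, 121 and 103 in WT. Both labelled strains lay above WT and overlapped each other. The log2 ratio exceeded WT by 1.20 (SE 0.07) in the rsm1∆-labelled libraries and by 1.17 (SE 0.08) in nup211-1435, about as much as nc-tgp1 itself rose. Between nup211-1435 and the rsm1∆-labelled libraries it differed by -0.04 (SE 0.05, exact two-sided permutation p = 0.5).

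Each ratio was tested over the 3 groups with an exact permutation test of the F statistic over 1680 arrangements of the 9 libraries. The p was 0.00357 for pho1 and for pho84, the smallest these arrangements can give, and 0.0179 for tgp1. Adjusted over the 3 ratios by Benjamini-Hochberg, these exact p-values were 0.00536, 0.00536 and 0.0179. When labels were permuted only within replicate number, the exact p of the tgp1 ratio did not stay under 0.05. The ratios restate the fold changes of the members given above. How often ratios of other features reach such p-values was not tested. Pairwise exact permutation tests of 3 against 3 libraries cannot go below 0.1, and every pair of groups without overlap reached that value.

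**Figure D2:**
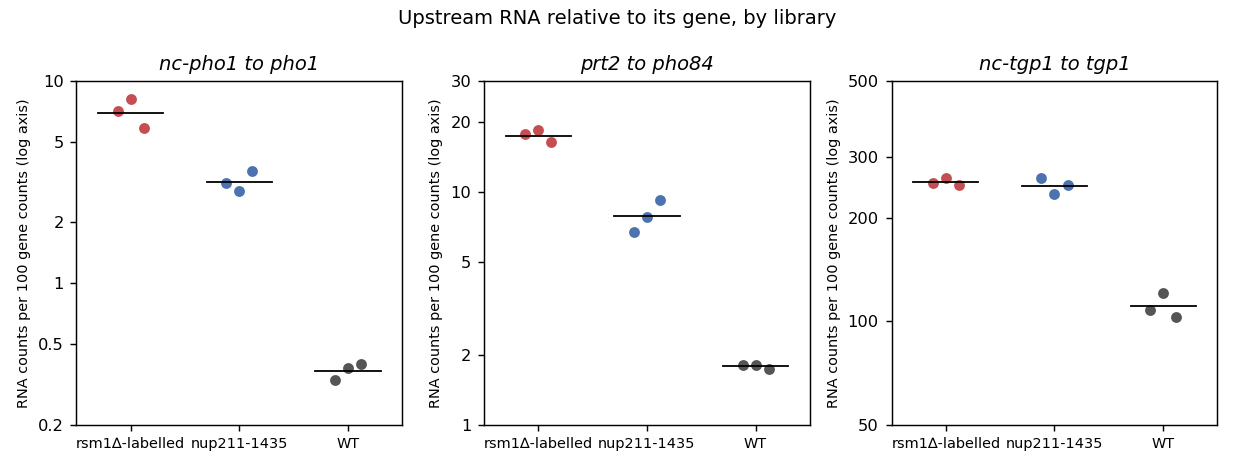
Counts of the upstream RNA per 100 counts of its gene in each library (log axis, 1 panel per pair), with the line at the geometric mean of 3 libraries. For pho1 and pho84 the rsm1∆-labelled libraries lie highest and WT lowest, and for tgp1 both labelled strains lie above WT and overlap each other.

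The gain of the upstream RNA was small beside the loss of the gene in CPM. At pho1, nc-pho1 gained 13.8 CPM in the rsm1∆-labelled libraries while the gene lost 962 CPM, a gain of 1.43% of the loss. In nup211-1435, nc-pho1 gained 9.66 CPM and pho1 lost 781 CPM, or 1.24%. The summed counts of that pair therefore fell, to 281 ± 17.2 CPM in the rsm1∆-labelled libraries and 458 ± 6.64 CPM in nup211-1435, against 1229 ± 71.0 CPM in WT (SD, n = 3 each).

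At pho84, prt2 gained 107 CPM in the rsm1∆-labelled libraries and the gene lost 745 CPM, a gain of 14.3% of the loss. In nup211-1435 the gain of 45.7 CPM came to 7.77% of a loss of 589 CPM. At tgp1 the balance was another one, since nc-tgp1 gained 33.0 CPM in the rsm1∆-labelled libraries and 33.7 CPM in nup211-1435 while the gene moved by -0.714 and 0.198 CPM. How the shared bases of nc-pho1 and prt2 entered these sums was not tested.

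The features next to the loci were taken from the annotation order, with the nearest counted ones added after the counts had been seen. Upstream of prt2, without overlap and read from the opposite strand, lies ecl3, a small gene named for its effect on chronological lifespan. It had 13.0, 14.4 and 12.2 CPM in the rsm1∆-labelled libraries, 13.2, 10.6 and 11.0 CPM in nup211-1435, and 2.91, 3.10 and 2.78 CPM in WT. It rose 4.51-fold (log2 fold change 2.17, SE 0.12, adjusted p = 5.98e-10) in the rsm1∆-labelled libraries and 3.96-fold (1.99, SE 0.12, adjusted p = 2.13e-09) in nup211-1435. The divergent neighbour of prt2 thus rose along with it in both labelled strains, and a difference between the labelled strains did not pass the test (log2 fold change -0.19, SE 0.10, adjusted p = 0.13).

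Downstream of pho1 on the same strand, the nearest tested gene was fub2, with very few reads. It had 2.02, 1.49 and 2.37 CPM in the rsm1∆-labelled libraries, 4.53, 4.90 and 6.22 CPM in nup211-1435, and 0.929, 1.046 and 0.762 CPM in WT. The groups did not overlap, and here nup211-1435 was highest, unlike at the members of the tandem. The rise was 5.73-fold in nup211-1435 (log2 fold change 2.52, SE 0.21, adjusted p = 5.86e-08) and 2.13-fold in the rsm1∆-labelled libraries (1.09, SE 0.25, adjusted p = 0.00115). The difference between nup211-1435 and the rsm1∆-labelled libraries passed as well (log2 fold change 1.43, SE 0.18, adjusted p = 1.49e-05). Between pho1 and fub2 lies SPNCRNA.446, with at most 3 counts in any library. Beyond ecl3, SPNCRNA.117 had 10 to 12 counts in the rsm1∆-labelled libraries, 9 to 24 in nup211-1435 and 23 to 28 in WT. It was lower than in WT in the rsm1∆-labelled libraries (log2 fold change -1.13, SE 0.35, adjusted p = 0.00965) and did not pass in nup211-1435 (-0.73, SE 0.33, adjusted p = 0.0616).

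Next to tgp1, SPBC1271.10c lies on the opposite strand and shares 67 nt with it. It averaged 215 ± 3.80 CPM in the rsm1∆-labelled libraries, 194 ± 4.91 CPM in nup211-1435 and 106 ± 0.667 CPM in WT (SD, n = 3 each). It rose in both labelled strains, by log2 fold changes of 1.02 (SE 0.03, adjusted p = 2.21e-12) and 0.88 (SE 0.03, adjusted p = 6.95e-12), on the other side of a gene that did not pass the test. The noncoding RNA ncRNA.1343 lies on the strand opposite to nc-tgp1 and shares 204 nt with its beginning. It averaged 47.6 ± 1.11 CPM in the rsm1∆-labelled libraries, 43.6 ± 0.673 CPM in nup211-1435 and 47.3 ± 2.65 CPM in WT. It did not pass in the rsm1∆-labelled libraries (log2 fold change 0.01, SE 0.05, adjusted p = 0.835). In nup211-1435 it stood at -0.12 (SE 0.05, adjusted p = 0.0402), a call that was lost, with its sign turned, under scaling by total counts (0.02, adjusted p = 0.744). Beyond SPBC1271.10c, pet802 averaged 25.4 ± 0.957 CPM in the rsm1∆-labelled libraries, 27.7 ± 0.767 CPM in nup211-1435 and 30.8 ± 0.778 CPM in WT. It was called lower in both labelled strains (log2 fold changes -0.28 and -0.16, SE 0.05 each), a call lost in nup211-1435 under scaling by total counts (-0.02). A transfer RNA gene on the far side of ncRNA.1343 had no count in any library. At the tgp1 locus, nc-tgp1 and SPBC1271.10c thus passed as higher in both labelled strains and ncRNA.1343 in neither.

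**Figure D3:**
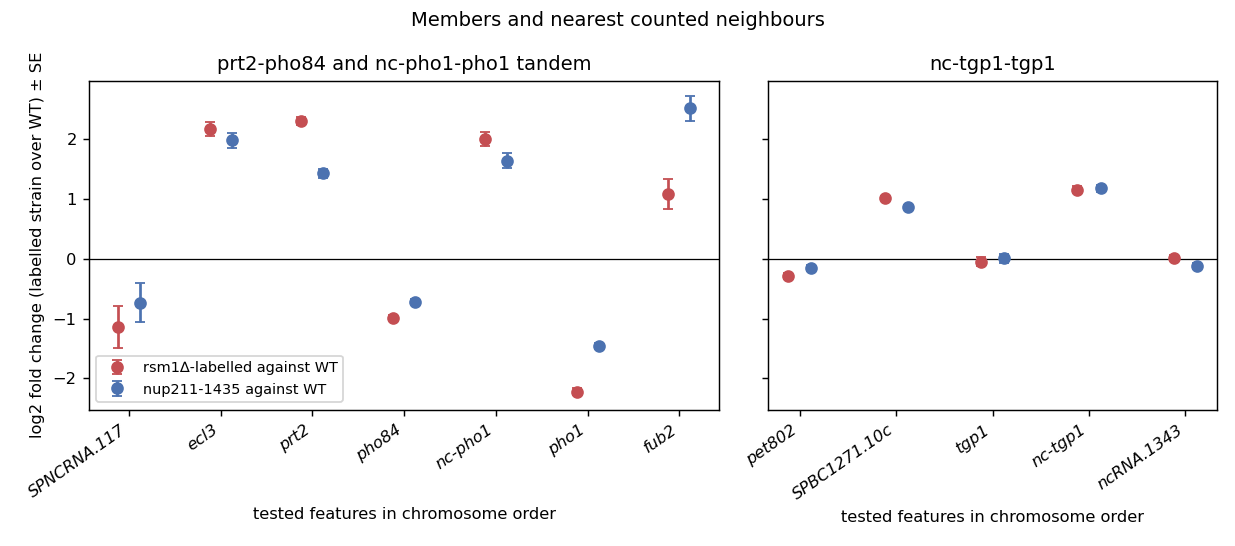
Log2 fold change of the labelled strain over WT (vertical axis) with its standard error for the members and their nearest tested neighbours, drawn in chromosome order without scale. Within the tandem, prt2 and nc-pho1 lie above 0 and pho84 and pho1 below it in both labelled strains, and at the other locus nc-tgp1 lies above 0 beside tgp1 near 0.

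Genes that sense phosphate or control the PHO genes were described as a list of 10. In the rsm1∆-labelled libraries, 5 rose, 1 fell and 4 were not called, with a median log2 fold change of 0.129. In nup211-1435, 4 rose, 2 fell and 4 were not called, with a median of 0.024. Scaling by total counts made these counts 8, 1 and 1 in the rsm1∆-labelled libraries and 5, 2 and 3 in nup211-1435. Over all features, 36.7% rose and 34.1% fell in the rsm1∆-labelled libraries, and 32.9% rose and 32% fell in nup211-1435. Under scaling by total counts 50.3% of all features rose in the rsm1∆-labelled libraries and 49.2% in nup211-1435, while 1394 and 1243 of the 6227 fell. No test of the lists was made.

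The gene for the activator Pho7 rose where pho1 and pho84 fell and where tgp1 did not pass the test. pho7 had 146, 154 and 149 CPM in the rsm1∆-labelled libraries, 116, 111 and 129 CPM in nup211-1435, and 77.3, 76.1 and 78.2 CPM in WT, with no overlap. It rose 1.94-fold in the rsm1∆-labelled libraries (log2 fold change 0.96, SE 0.05, adjusted p = 1.69e-10) and 1.54-fold in nup211-1435 (0.62, SE 0.05, adjusted p = 2.07e-08). It was lower in nup211-1435 than in the rsm1∆-labelled libraries (log2 fold change -0.34, SE 0.05, adjusted p = 2.64e-05). Of the labelled strains, the one with more pho7 RNA had less pho1 and pho84 RNA. Whether the level of pho7 RNA bears on these genes was not tested.

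The gene pqr1, for a ubiquitin ligase of phosphate homeostasis, averaged 241 ± 6.93 CPM in the rsm1∆-labelled libraries, 189 ± 8.69 CPM in nup211-1435 and 157 ± 3.89 CPM in WT (SD, n = 3 each). It rose in both labelled strains, with log2 fold changes of 0.62 and 0.27 (SE 0.04 each). nrf1, which encodes a subunit of the complex that makes polyphosphate, averaged 216 ± 4.99 CPM in the rsm1∆-labelled libraries, 192 ± 3.53 CPM in nup211-1435 and 325 ± 16.3 CPM in WT. It fell in both, with log2 fold changes of -0.59 and -0.76 (SE 0.04 each). The list also holds vtc4 and vtc2, for other subunits of that complex, which did not fall in this way. vtc4 rose in the rsm1∆-labelled libraries (log2 fold change 0.23, SE 0.06, adjusted p = 0.00696). In nup211-1435 vtc4 was not called (-0.06, SE 0.06, adjusted p = 0.391). vtc2 was not called in either labelled strain (-0.08 and -0.04, SE 0.05 each).

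The inositol pyrophosphate kinase gene asp1, which carries the kanMX marker in nup211-1435, had 198, 201 and 197 CPM there, against 128, 131 and 133 CPM in WT. It rose in that strain (log2 fold change 0.60, SE 0.03, adjusted p = 6.3e-10). Whether the marker plays a part in this rise was not tested. It also rose a little in the rsm1∆-labelled libraries, to 149 ± 5.41 CPM against 131 ± 2.28 CPM in WT (log2 fold change 0.19, SE 0.03, adjusted p = 0.00013). The gene of another kinase of the pathway, kcs1, rose in both labelled strains, by 0.40 in the rsm1∆-labelled libraries and 0.29 in nup211-1435 on the log2 scale (SE 0.04 each). aps1, the gene for a hydrolase of inositol pyrophosphates, fell in nup211-1435 (log2 fold change -0.35, SE 0.03, adjusted p = 4.23e-07). In the rsm1∆-labelled libraries its log2 fold change was 0.03 (SE 0.03, adjusted p = 0.384). siw14, for another phosphatase of inositol pyrophosphates, was not called in nup211-1435 (log2 fold change -0.02, SE 0.06, adjusted p = 0.782). In the rsm1∆-labelled libraries siw14 was not called either (0.07, SE 0.06, adjusted p = 0.295). Scaling by total counts called aps1 and siw14 higher in the rsm1∆-labelled libraries (0.18 and 0.21).

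Among 7 other genes for phosphatases and for phosphate or phosphodiester handling, 4 rose, 1 fell and 2 were not called in the rsm1∆-labelled libraries, with a median log2 fold change of 0.185. In nup211-1435, 5 rose, 1 fell and 1 was not called, with a median of 0.203. Of all features, 36.7% rose and 34.1% fell in the rsm1∆-labelled libraries, and 32.9% rose and 32% fell in nup211-1435. Scaling by total counts gave 6 that rose and 1 that fell in either labelled strain, where 50.3% and 49.2% of all features rose. Unlike pho84, the transporter genes pho841 and pho842 were among those that rose. pho841 had 439, 440 and 433 CPM in the rsm1∆-labelled libraries, 268, 276 and 297 CPM in nup211-1435, and 205, 195 and 235 CPM in WT. It stood 2.07-fold above WT in the rsm1∆-labelled libraries (log2 fold change 1.05, SE 0.06, adjusted p = 3.26e-08) and 1.32-fold above it in nup211-1435 (0.41, SE 0.06, adjusted p = 0.000121). The order of the strains for pho841 was the reverse of that for pho84.

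pho842 had 205, 226 and 197 CPM in the rsm1∆-labelled libraries, 147, 149 and 144 CPM in nup211-1435, and 129.9, 116 and 136 CPM in WT, with log2 fold changes of 0.72 and 0.20 (SE 0.06 each). The acid phosphatase gene pho4, known to be repressed by thiamine rather than by phosphate, fell alike in both labelled strains. It averaged 135 ± 2.96 CPM in the rsm1∆-labelled libraries, 135 ± 2.83 CPM in nup211-1435 and 205 ± 5.79 CPM in WT. Its log2 fold change was -0.60 (SE 0.03) in each, and between the labelled strains it was 0.00 with a 95% interval from -0.07 to 0.07. The glycerophosphodiesterase gene gde1 rose by 0.19 in the rsm1∆-labelled libraries and by 0.43 in nup211-1435 on the log2 scale (SE 0.04 each). spx2 rose in both labelled strains (log2 fold changes 0.43 and 0.36, SE 0.08 each).

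A list of 28 genes for 3′-processing, termination and RNA elimination, the machinery that acts on the upstream RNAs, moved in both directions. In the rsm1∆-labelled libraries 14 rose, 9 fell and 5 were not called, with a median log2 fold change of 0.089. In nup211-1435 12 rose, 10 fell and 6 were not called, with a median of 0.048. Calls in both directions were common over all features as well, of which 36.7% rose and 34.1% fell in the rsm1∆-labelled libraries and 32.9% rose and 32% fell in nup211-1435. Under scaling by total counts 19 rose and 3 fell in the rsm1∆-labelled libraries, and 17 rose and 6 fell in nup211-1435, beside 50.3% and 49.2% of all features rising. No change on the list was as large as those of the 5 called members in the same strain. The largest in the rsm1∆-labelled libraries were those of mpe1, for a subunit of the cleavage and polyadenylation factor (0.56, SE 0.04), din1, for a partner of the nuclear exonuclease Dhp1 (-0.44, SE 0.06), rrp6, for the exosome's nuclear exonuclease (0.40, SE 0.03), and red1, for an RNA elimination factor (-0.39, SE 0.04).

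In nup211-1435 the largest were those of mpe1 (0.47, SE 0.04), cft1, for another subunit of the cleavage and polyadenylation factor (0.45, SE 0.03), rrp6 (0.43, SE 0.03) and mtl1, for an RNA helicase that works with Red1 (0.43, SE 0.03). Each of these genes was called. The gene of Mmi1 itself, which binds the hexamer shown above, stood at -0.12 in the rsm1∆-labelled libraries (adjusted p = 0.0056) and at -0.08 in nup211-1435 (adjusted p = 0.0528, or 0.0384 with DESeq2's size factors). The sign of both turned under scaling by total counts (0.02 and 0.05).

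**Figure D4:**
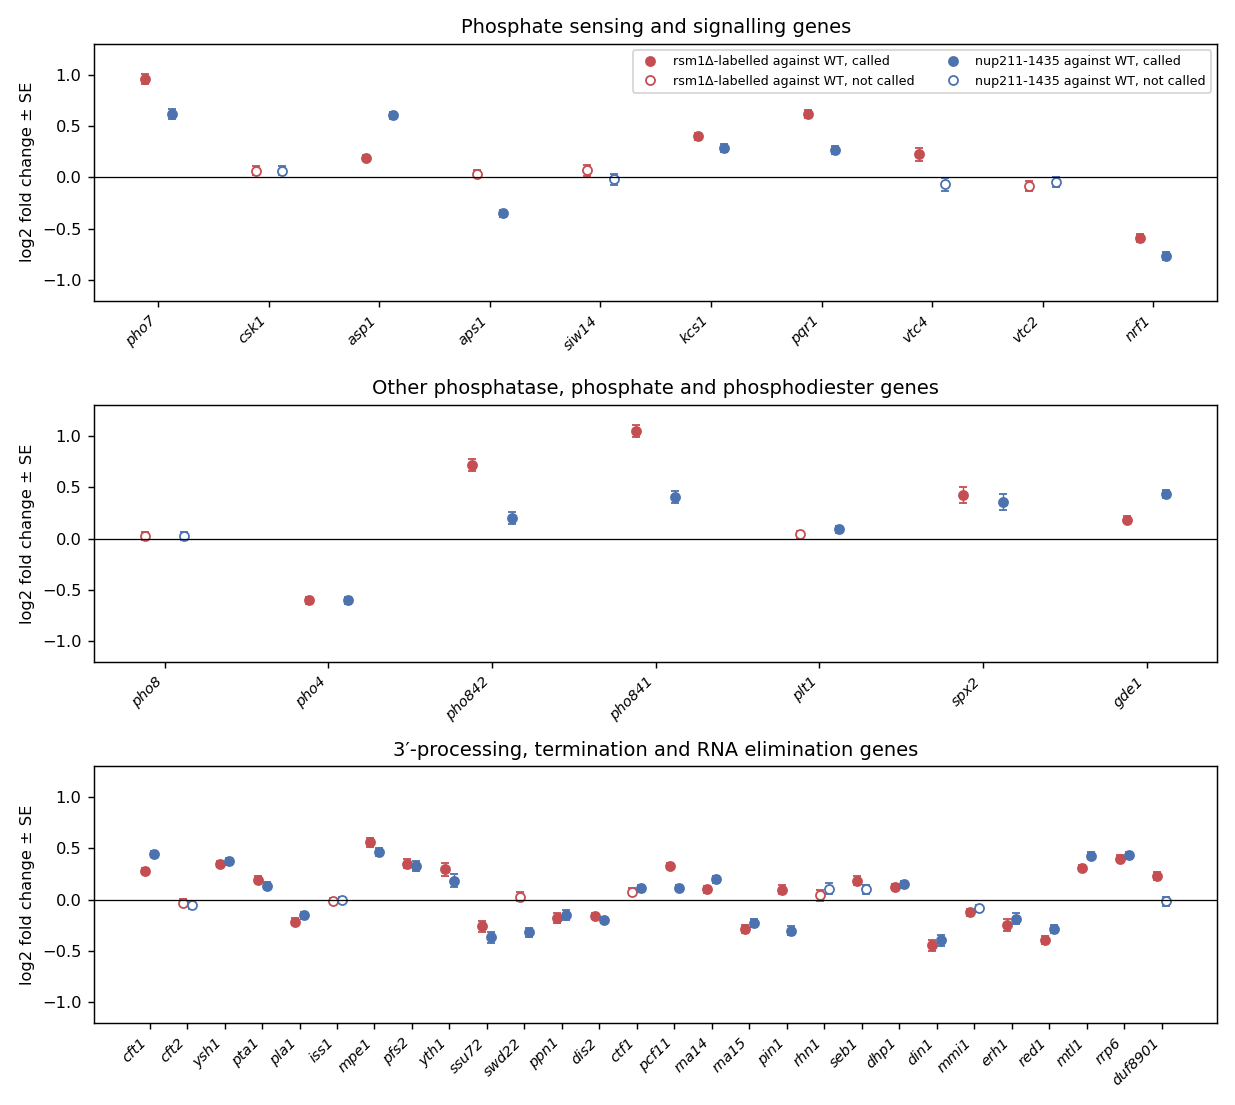
Log2 fold change of each labelled strain over WT (vertical axis) with its standard error for the genes of the 3 lists, filled where called at an adjusted p under 0.05 and open where not. pho7 and pho841 stand highest in the rsm1∆-labelled libraries, and nrf1 and pho4 lie below 0 in both labelled strains.

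The features whose levels ran most like each member's were found among 4882 features with a mean of at least 10 CPM. The measure was the root mean square difference of log2 CPM, centred on the WT mean, over the 9 libraries. Closest to pho84 were ser2, for phosphoserine phosphatase, at 0.055 and efm6 at 0.056, and neither is on the lists above. For pho1, which changed more than nearly all features, the nearest were rps2202, for a ribosomal protein with a close paralog that may share its reads, at 0.316, and SPNCRNA.1096 at 0.385.

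Nearest to nc-pho1 were atf31, for a bZIP protein, at 0.145 and mug147 at 0.226. SPAC4H3.08 at 0.118 and cbf12 at 0.131 came closest to prt2. egt1, which makes ergothioneine, at 0.10 and snR30, a small nucleolar RNA, at 0.108 came closest to nc-tgp1. For tgp1 the nearest were SPBC18E5.08 at 0.045 and alp14, for a microtubule protein, at 0.053.

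The authors' deposited tables hold the same members. In the authors' deposited table the log2 fold change of pho1 was -2.23 (SE 0.08) for the rsm1∆-labelled libraries against WT and -1.46 (SE 0.08) for nup211-1435 against WT. The overall mean that the authors' deposited table gives for pho1 was 11181 normalized counts, below the mean of 16272 over the 3 group averages listed there. The model behind that table may therefore have held further libraries.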

How the data were processed

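Poly(A)+ RNA of 9 libraries was made with a strand-preserving kit and sequenced, per the labels' protocols. The authors deposited raw read counts for 6988 features and, in separate tables, log2 fold changes of each labelled strain against WT with p-values and adjusted p-values. Those tables also hold, per the file headers, group averages and an overall mean of size-factor-scaled counts (a signal value) and the Wald statistic (a score, not used). HISAT2 2.1.0, SAMtools, HTSeq 0.10.0, DESeq2 and the build ASM294v2 are named per the submitters' processing notes. The choice of annotation and strand setting for HTSeq is not given in the sources used here. Values of overlapping features are therefore uncertain.

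Counts were analysed with edgeR 4.0.16 in R 4.3.3. The filter filterByExpr was set to a minimum count of 10 and a minimum total of 15. TMM scaling and a quasi-likelihood fit with no covariate over all 9 libraries followed. The biological coefficient of variation was 3.95%. All adjusted p-values of single features come from this fit, adjusted by Benjamini-Hochberg over 6227 features. Intervals are 95% intervals of the log2 fold change. The steps were tested on simulated data. For the fit, only a small share of the simulated features changed, whereas 70.7% and 64.9% were called here against WT. How the fit and its scaling behave under so many changes was not tested. Ratios were taken on raw counts and tested by exact permutation. Names were matched to RefSeq ASM294v3, by identifier for 6836 features and by synonym for 12. Sequences came from the same assembly.

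The members and the gene lists were chosen with earlier results of these data known. Named from each list were up to 4 genes with the largest called change in each labelled strain against WT. mmi1, vtc4, vtc2 and siw14, and the values of genes named for one labelled strain in the other, were chosen after their values were seen. The labels call the replicates biological, and no pair of them agreed within sampling noise (chi-square per degree of freedom from 2.8 to 11.9). Alternatives were DESeq2 1.42.0, other scalings, no filter, a replicate block and leaving out each library.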

Additional observations from a re-analysis of the deposited data

How the results depend on the processing

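Results were recomputed under alternatives such as DESeq2, its size factors, total-count scaling, no filter, a replicate block and leaving out each library. Of 348 comparisons with the main value, 340 counted as the same. For a member's fold change this meant the same direction and the same side of the threshold. For a ratio only the side of the threshold was judged. The number of features called had only to stay within a fixed factor of its main value. Under total-count scaling the median log2 fold change of all features against WT was 0.157 for the rsm1∆-labelled libraries and 0.142 for nup211-1435, beside 0.014 and 0.007 with TMM. The share of calls that were higher then moved to 69.2% and 71.1%, against 51.9% and 50.7% with TMM. Under it pho1 stood at -2.08 and -1.33 and pho84 at -0.84 and -0.58, and both remained called, while tgp1 stood at 0.0991 in the rsm1∆-labelled libraries (adjusted p = 0.263). With 1 library left out, tgp1 ranged from -0.0713 to 0.0832 in nup211-1435 against WT and from -0.0263 to 0.1282 between nup211-1435 and the rsm1∆-labelled libraries. In that last comparison nc-tgp1 ranged from -0.0676 to 0.0673, and nc-pho1 from -0.4677 to -0.2804, the call being lost without replicate 2 of either labelled strain. Deviations of same-numbered libraries correlated between -0.08 and 0.082. These weak correlations show no pairing by number, but they cannot exclude that same-numbered cultures shared a day or batch. With the replicate block 4393, 4057 and 3133 features were called, against 4405, 4042 and 3128 without it, and no member's call changed. With labels permuted within replicate number, the exact p of the tgp1 ratio became 0.0833. For the pho1 and pho84 ratios it became 0.0278, the smallest possible. Of the 6 members, nc-pho1 had the fewest counts in WT, 94 to 124.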
